A study of Mus musculus with 24 samples.

Results

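Culture time under flow was examined by setting the 3 samples of vehicle-treated cells kept under wall shear stress (WSS) for 36 h against the 3 kept under WSS for 6 h, which are 6 of the 24 samples of the series. The cells came from the aorta-gonad-mesonephros (AGM) region of C57BL/6J mouse embryos at E10.5, were dissociated with Accutase, seeded in channel slides and left to attach for 6 to 8 h in M5300 Myelocult medium before the pump was started. Both groups then received 5 dyne/cm2 and vehicle, so that they differed in the labels by culture time alone. Each sample pooled the RNA of 6 channels. The static vehicle groups (1e-04 dyne/cm2) and the WSS groups with 10 µM indomethacin, a cyclooxygenase inhibitor, each with 3 samples at 6 h and 3 at 36 h, are used here only to ask where the change with time differed.

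The AGM region surrounds the embryo's main artery, the dorsal aorta, whose lining endothelium gives rise to the first blood stem cells of the adult type. Beside the aorta it holds nephric ducts and tubules, the coelomic lining, the early gonad, mesenchyme, nerve and neural crest cells, muscle precursors and circulating primitive red cells. Wall shear stress is the drag of a moving fluid along a surface, and endothelium answers it with genes such as Klf2. A sample is therefore a mixture of lineages, and each value below is the RNA level of a gene in the whole mixture.

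RNA was measured on Illumina bead arrays, 1 per sample. Values are log2 normalized intensities of 1 probe per gene, a change is the mean at 36 h minus the mean at 6 h on that log2 scale with its standard error (SE), and a gene "rose" or "fell" if its adjusted p (limma, Benjamini-Hochberg over all genes) was under 0.05. Levels of different probes are not comparable with each other. Between 19497 and 20198 of 45281 probes were above background on each of the 6 arrays, and arrays of a group correlated at 0.98 to 0.993 across the series. Nothing in the labels says that the 3 samples of a group are separate cultures or litters. The p-values therefore speak only for the scatter among arrays of a group, and that scatter may be technical. It was estimated from all 24 arrays in 8 groups, so an SE can be wider or narrower than the 6 arrays compared would give. They name no chip or hybridization batch, so a batch effect was not tested. On the first principal component, which held 49.73% of the variance over the 24 arrays, array 1 at 6 h lay at -14.05 and its partners at -26.91 and -24.39, all on the opposite side from the 36 h arrays at 28.68 to 36.17.

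Over the 12226 genes tested, 4372 changed between 6 h and 36 h under WSS, which was 35.8% of them. Of these 2206 (18.0%) rose and 2166 (17.7%) fell, and 604 rose and 396 fell by over 2-fold. The median change of all genes was 0.01. For 5471 genes (44.7%) all 3 arrays of one time lay beyond all 3 of the other, and this separation is stated below for single genes only. Counts of gene lists below are to be read against these shares. Of 995 genes in 49 lists, 735 were tested, 200 were not above background on all 3 arrays of any group and 60 had no probe matched to them. An untested gene called not above background below is meant in that sense, and may have had signal on single arrays. The markers of the labelled tissue were uneven. Endothelial Cdh5 and Pecam1 and the blood factor Runx1 were above background at 6 h, whereas the epithelial marker Epcam, the pan-leukocyte marker Ptprc and the gonadal markers Gata4 and Nr5a1 were not above background, and the coelomic marker Wt1 was not analysed here.

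Genes of red cells had the largest falls of any lineage list. Of 5 globin genes tested 4 fell and none rose, with a median change of -2.59, and 12 of 17 genes of red cell haem synthesis, membrane and transcription fell and none rose, with a median of -1.33. Hbb-bh1 and Hba-x, the embryonic beta-like and alpha-like globins of primitive red cells, led all falls. Hbb-bh1 read 14.17, 13.46 and 14.11 on the arrays at 6 h and 10.64, 9.61 and 9.49 at 36 h. Its groups lay far apart, and the level fell by 4.0 (SE 0.72, adjusted p = 0.00023). Hba-x stood at 13.80, 13.21 and 13.47 and then at 10.35, 9.11 and 9.32, a change of -3.90 (SE 0.78, adjusted p = 0.00057), again with no overlap. Fewer red cells and less globin RNA per cell cannot be told apart in such bulk samples, and the same holds for every lineage below.

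The remaining globins fell less. Hbb-y, another embryonic beta-like globin, fell by 2.49 (SE 0.60, adjusted p = 0.0027), and Hba-a1, an adult alpha globin, fell by 2.59 (SE 0.73, adjusted p = 0.0088) from 14.70 to 15.10 at 6 h to 11.93 to 12.79 at 36 h. The adult beta globin Hbb-b1 did not pass, at 12.47, 10.95 and 12.00 and then 11.16, 11.45 and 10.08 (adjusted p = 0.44). Hba-a1 and Hbb-b1 have near-identical copies, and their probes cannot be assigned to 1 copy with certainty.

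Among the other red cell genes, Slc4a1, the band 3 anion exchanger of the red cell membrane, was the tightest, at 10.91, 10.84 and 10.96 at 6 h and 7.30, 7.10 and 6.96 at 36 h. That is a change of -3.79 (SE 0.69, adjusted p = 0.00026), or 13.8-fold, with an SE that draws on the spread in all 8 groups. Alas2, the red cell enzyme that starts haem synthesis, read 9.18, 8.32 and 8.72 and then 6.48, 5.53 and 5.61, a fall of 2.87 (SE 0.72, adjusted p = 0.0036). Trim10, a red cell ubiquitin ligase, and Kel, the Kell blood group protein, were above background on every array at 6 h and on none at 36 h, so that they were at least 6.52-fold and at least 6.06-fold lower. Car2, a carbonic anhydrase abundant in red cells, fell by 2.62 and the mitochondrial iron carrier Slc25a37 by 2.06. The red cell transcription factors Nfe2 and Klf1 fell by 1.99 (adjusted p = 0.0049) and 1.38 (adjusted p = 0.0094), the second of which did not pass without array 3 at 36 h. Of the list's enzymes of haem synthesis that all cells use, Fech, ferrochelatase, fell by 0.60 (SE 0.21, adjusted p = 0.03), which did not pass without array 1 or array 2 at 36 h or array 2 or array 3 at 6 h, while Urod and Cpox changed by 0.02 and 0.04 and did not pass. The transferrin receptor Tfrc stood at 0.43 (adjusted p = 0.055) and passed without array 1 at 6 h. With any 1 of the 6 arrays left out, 4 globins and 10 to 12 of the other red cell genes still fell.

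Promoters are shown for 3 of these genes because their lineage is run by GATA factors, which bind GATA sites. They were taken in order of fall among genes whose stretch holds such a site, so their matches follow from the choice. Each is the stretch from 250 bases before to 50 after the RefSeq start site on GRCm38.p6, with each AGATAA or TGATAA, read on either strand, in capitals. All 7 genes of the red cell list that fell and have such a stretch in the RefSeq table held a match, as did 8 of the 12 stretches of all tested members, beside 18.6% of all 32851 stretches of the same length. A match is a run of letters, not a shown binding site. Hba-x lies at chr11:32276350-32276649 on the plus strand, Trim10 at chr17:36869324-36869623 on the plus strand, and Kel at chr6:41704276-41704575 on the minus strand.
Hba-x: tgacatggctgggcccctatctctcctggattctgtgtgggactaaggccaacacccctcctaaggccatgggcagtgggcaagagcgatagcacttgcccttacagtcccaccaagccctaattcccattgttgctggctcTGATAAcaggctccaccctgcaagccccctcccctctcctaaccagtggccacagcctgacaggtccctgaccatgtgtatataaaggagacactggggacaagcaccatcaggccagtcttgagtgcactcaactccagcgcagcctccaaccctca
Trim10: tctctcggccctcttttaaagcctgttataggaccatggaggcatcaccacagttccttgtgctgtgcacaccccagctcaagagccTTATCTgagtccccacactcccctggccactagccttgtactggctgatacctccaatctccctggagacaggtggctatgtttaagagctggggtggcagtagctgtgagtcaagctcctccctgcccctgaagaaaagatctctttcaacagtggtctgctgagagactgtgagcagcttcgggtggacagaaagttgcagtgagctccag
Kel: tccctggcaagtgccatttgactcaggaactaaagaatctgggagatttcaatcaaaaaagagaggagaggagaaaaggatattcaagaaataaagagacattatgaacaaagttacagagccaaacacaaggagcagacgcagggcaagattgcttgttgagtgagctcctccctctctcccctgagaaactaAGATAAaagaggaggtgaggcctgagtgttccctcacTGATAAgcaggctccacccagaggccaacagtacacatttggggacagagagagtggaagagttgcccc

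**Figure D1:**
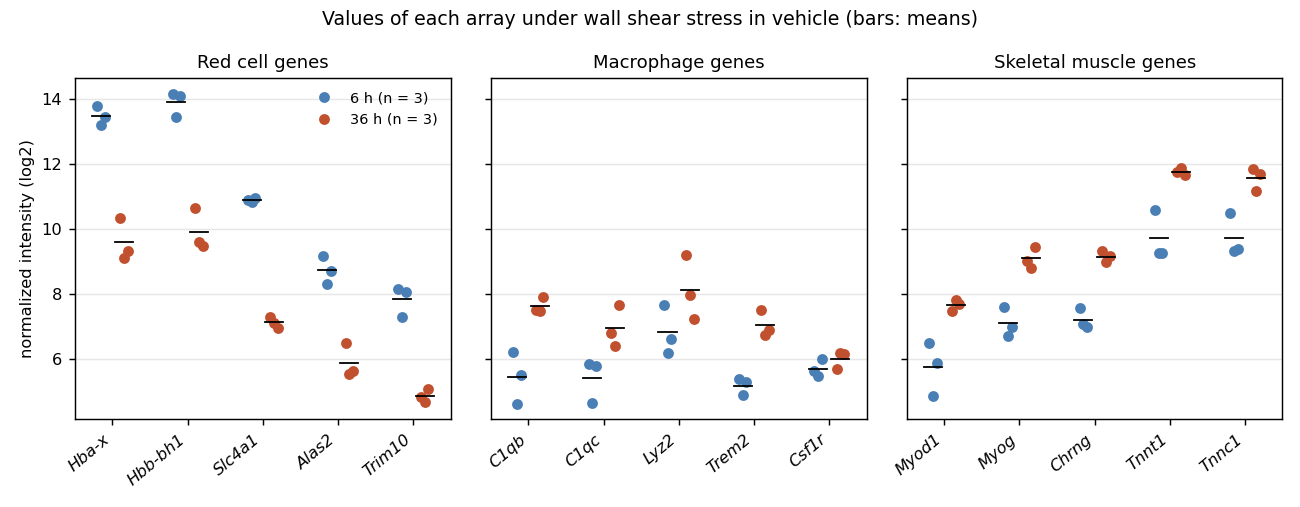
Normalized intensity (log2, vertical axis) of 5 red cell, 5 macrophage and 5 skeletal muscle genes on each of the 3 arrays at 6 h (blue) and the 3 at 36 h (orange-red) under WSS in vehicle; black bars are means. The red cell genes are lower and the muscle genes higher at 36 h on every array, while the times overlap for Lyz2 and Csf1r.

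Endothelial and blood stem cell genes gave smaller and less even changes. Of 18 endothelial genes tested, 6 fell and none rose, with a median of -0.49. Sox17, an endothelial transcription factor, read 5.38, 6.24 and 6.10 at 6 h and 5.41, 4.88 and 4.47 at 36 h, with array 1 of 6 h inside the range of the later arrays, for a change of -0.98 (SE 0.26, adjusted p = 0.0048). Eng, a co-receptor for transforming growth factor beta, fell by 1.0 (SE 0.26, adjusted p = 0.0056), but it did not pass without array 2 at 36 h. The junction genes Cdh5 and Pecam1 changed by -0.63 (SE 0.27, adjusted p = 0.069) and -0.49 (SE 0.21, adjusted p = 0.078), and Cdh5 passed, at -0.85, without array 2 at 36 h. Array 3 at 36 h was the lowest of the 6 arrays for Esam, at 6.32 against 7.45 to 8.22 on the others, and for Cdh5, at 4.74 against 5.66 to 6.23. The junction gene Cldn5 was at 5.00 there against 7.26 and 7.23 on its partners. Leaving out that array left 3 endothelial genes that fell and brought 2 that rose, and leaving out array 2 or array 3 at 6 h left 2 and 3 that fell. Hey1, a Notch target, rose by 1.18 (SE 0.25, adjusted p = 0.00084) and Efnb2, an arterial ligand, by 0.59 (SE 0.17, adjusted p = 0.0093). These were the 2 that passed among 10 genes of arterial, venous and lymphatic identity, and 4 rose without array 1 at 36 h.

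Among 14 genes tested of blood stem cells and their emergence, 2 rose and 3 fell, and the median was 0.08. Kit, the receptor for stem cell factor, was the clearest rise of the list, from 7.16, 7.03 and 7.22 to 7.77, 8.57 and 8.44 (change 1.12, SE 0.17, adjusted p = 3.9e-05). No 36 h array lay within the 6 h range. Kit also marks melanoblasts. The other rise of the list, that of the corepressor Cbfa2t3 (0.66, SE 0.25, adjusted p = 0.046), had 1 of its 2 detected probes changing the other way and was absent in 5 of the 6 fits that leave out an array. Runx1, the factor that blood stem cell emergence requires, read 6.56, 6.57 and 6.62 and then 6.81, 7.15 and 7.64, higher on all 3 later arrays, but did not pass (change 0.62, SE 0.26, adjusted p = 0.072). It passed, at 0.81, without array 1 at 36 h. Gata2 stood at 7.36, 7.54 and 7.98 and then 7.33, 7.11 and 6.75 (change -0.57, SE 0.24, adjusted p = 0.065) and passed, at -0.70, without array 1 at 36 h or array 1 at 6 h. Tal1, a factor of blood and red cell formation, was above background on all arrays at 6 h and on none at 36 h and was at least 1.78-fold lower (adjusted p = 0.0017). Gfi1b, shared by red cells and platelets, fell by 1.46 (SE 0.34, adjusted p = 0.0022). The early blood markers Itga2b and Cd34 changed by -0.02 (SE 0.22) and 0.32 (SE 0.35). Of 10 megakaryocyte and platelet genes only the chemokine Ppbp fell, by 1.04 (adjusted p = 0.02), which did not pass without array 1 at 6 h or array 3 at 36 h, while 4 of the list fell without array 1 at 36 h. Mast cell genes were mostly not tested, since 11 of 13 were not above background, among them the proteases Cpa3 and Cma1.

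Macrophage genes rose. Of 20 tested, 12 rose and none fell, with a median of 0.74. C1qb, a chain of the first complement component, read 6.20, 4.61 and 5.50 at 6 h and 7.50, 7.48 and 7.91 at 36 h. The times did not overlap, with a change of 2.19 (SE 0.34, adjusted p = 4.9e-05), and the companion chain C1qc rose by 1.53 (SE 0.33, adjusted p = 0.0011). Trem2, a lipid receptor of phagocytes, went from 5.36, 4.88 and 5.28 to 7.50, 6.74 and 6.90 (change 1.87, SE 0.25, adjusted p = 1.1e-05). Lyz2, lysozyme, read 7.67, 6.18 and 6.61 and then 9.19, 7.97 and 7.22, so that array 1 at 6 h lay above array 3 at 36 h (change 1.31, SE 0.38, adjusted p = 0.011). That array was the highest of its group for C1qb, Lyz2, the signalling adaptor Tyrobp (6.50 against 4.59 and 5.10) and Fcer1g (8.17 against 6.77 and 7.36). Csf1r, the receptor that macrophages depend on, did not pass, at 5.63, 5.47 and 5.99 and then 5.68, 6.19 and 6.15. The other 8 macrophage and myeloid genes on the array, among them Mrc1, Cd163, Itgam and the granulocyte genes Mpo and Elane, were not above background. Without array 2 at 6 h 6 macrophage genes rose. Lyz2 did not pass without that array or without array 1 at 36 h. In the list of MHC class II presentation, 4 of 5 genes tested rose, but 1 did so without array 1 at 36 h or array 2 at 6 h, 2 without array 3 of either time, and Cd74, H2-Aa and Ciita were not above background.

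Lysosome genes moved in the same direction and more evenly. Of 22 tested, 16 rose and none fell, with a median of 0.66, and 15 to 18 rose with any 1 array left out. Gpnmb, a glycoprotein of lysosomes and melanosomes that is listed with macrophage and lysosome genes alike, read 9.20, 8.40 and 9.08 and then 11.65, 11.72 and 11.24, a 6.26-fold rise (2.65, SE 0.27, adjusted p = 4.3e-07). Lipa, the lysosomal lipase, rose by 1.31 (SE 0.19) and Hexa, a ganglioside hydrolase, by 1.27 (SE 0.15). Grn, progranulin, was very tight, at 10.24, 10.16 and 10.28 and then 11.15, 11.11 and 11.22. In the list of lipid uptake, storage and oxidation 7 of 14 rose and none fell. Angptl4, a secreted inhibitor of lipoprotein lipase, rose by 2.34 (SE 0.26, adjusted p = 1.6e-06) and the apolipoprotein Apoe by 1.40 (SE 0.24, adjusted p = 0.00013).

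Skeletal muscle genes rose as a block. Of 17 tested, 13 rose, 1 fell and 3 did not pass, and the median of 1.45 was the highest of the 19 lineage lists. Myod1 and Myog are the factors that commit cells to muscle and start their differentiation. Myod1 read 6.48, 4.85 and 5.88 at 6 h, where it was above background on 2 of 3 arrays, and 7.47, 7.81 and 7.70 at 36 h (change 1.92, SE 0.37, adjusted p = 0.00038). Myog went from 7.61, 6.70 and 6.98 to 9.03, 8.81 and 9.44 (change 2.00, SE 0.26, adjusted p = 9.1e-06). Neither gene's times overlapped. Tnnt1, slow troponin T, rose by 2.05 (SE 0.30) from 10.60, 9.27 and 9.26 to 11.75, 11.87 and 11.68. Chrng, the fetal subunit of the acetylcholine receptor, rose by 1.95 (SE 0.27, adjusted p = 1.6e-05). Mymk, which myoblasts need for fusion, rose by 1.59 (SE 0.25, adjusted p = 6.3e-05). The member that fell was Pax3, a marker of muscle precursors, by 0.69 (SE 0.25, adjusted p = 0.032), which did not pass with any 1 array left out. The actins Actc1 and Acta1 changed by -0.32 (SE 0.26) and 0.14 (SE 0.23). The same number, 13, rose with each array left out in turn. Msc, the muscle repressor musculin, and Chodl, a lectin of muscle and motor neurons, were among the largest rises of all genes, at 3.37 (SE 0.46) and 3.43 (SE 0.39).

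Genes of mesenchyme and collagen matrix rose in 10 of 22 cases and fell in 1, with a median of 0.62. Col6a3, a chain of collagen VI, read 7.56, 6.93 and 7.02 and then 9.59, 10.79 and 9.11, a 6.31-fold rise (2.66, SE 0.43, adjusted p = 6.8e-05). Lum, the collagen-binding proteoglycan lumican, rose by 2.21 (SE 0.36, adjusted p = 8.7e-05) and Col1a2, a chain of collagen I, by 1.52 (SE 0.16, adjusted p = 6.4e-07). The other collagen I chain, Col1a1, did not pass, at 8.80, 9.15 and 9.15 and then 8.99, 9.52 and 10.48 (adjusted p = 0.1), though it passed, with a change of 0.97, without array 1 at 36 h. The member that fell was Vim, the intermediate filament vimentin, by 0.68 (SE 0.20, adjusted p = 0.011), which did not pass without array 2 at 36 h or array 2 at 6 h. Matrix genes outside the list were among the largest rises, as was Hic1, a transcriptional repressor of mesenchyme (3.20, SE 0.37, adjusted p = 2.7e-06). Ogn, osteoglycin, was above background on no array at 6 h and on all at 36 h and was at least 3.39-fold higher. Mgp, which restrains calcification, rose by 2.47 (SE 0.25, adjusted p = 4.3e-07), and Lrrc17, a secreted leucine-rich repeat protein, rose by 3.16 (SE 0.19, adjusted p = 1.2e-09). In the list of matrix proteases and their inhibitors 10 of 17 rose and none fell. Ctsk, a collagen-cutting cathepsin, went from 6.12, 5.56 and 5.40 to 7.44, 7.84 and 7.71 (1.97, SE 0.31, adjusted p = 5.9e-05). The inhibitors Serpine2, Timp1 and Timp2 rose by 1.35, 1.24 and 1.13.

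Of 16 smooth muscle and pericyte genes 5 rose and 1 fell. Actg2, enteric smooth muscle actin, read 10.90, 10.50 and 10.71 and then 12.00, 12.36 and 13.67 (1.97, SE 0.32, adjusted p = 7.8e-05), and Rgs5, a pericyte marker, rose by 0.90 (SE 0.19, adjusted p = 0.00096). Acta2, smooth muscle actin, was level at 15.31 to 15.45 and 15.14 to 15.49. Array 3 at 36 h was the highest for Actg2 and for the smooth muscle myosin Myh11, at 7.63 against 5.93 and 5.97, and without it 2 genes of the list rose and 3 fell. Without array 2 or array 3 at 6 h 3 rose. In the list of basement membrane and adhesion 9 of 22 rose and 3 fell, but 3 rose without array 3 at 36 h. The members that fell were Actn1 (-0.87, SE 0.23, adjusted p = 0.0051), Vcl (-0.85, SE 0.20, adjusted p = 0.0021) and Zyx (-0.79, SE 0.17, adjusted p = 0.00088), which encode alpha-actinin, vinculin and zyxin, proteins found where adhesions meet actin. Its member Nid1 rose by 0.85 (SE 0.25, adjusted p = 0.011) on the probe used, while its second detected probe changed the other way, and it did not pass without array 3 at 36 h.

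Neural crest and pigment cell genes rose. Of the 5 melanoblast genes tested 4 rose, and of 9 neural crest and Schwann cell precursor genes 4 rose and none fell. Dct, the melanoblast enzyme dopachrome tautomerase, read 5.37, 4.78 and 5.29 at 6 h, where 2 of 3 arrays were above background, and 7.29, 8.93 and 7.75 at 36 h, a 7.18-fold rise (2.84, SE 0.36, adjusted p = 6.6e-06). Pmel, a fibre protein of melanosomes, was above background on 1 array at 6 h and on all at 36 h and rose by 2.53 (SE 0.30, adjusted p = 3.6e-06). In both genes array 2 at 36 h was the highest. The pigment cell genes Mitf, Tyr, Tyrp1 and Mlana were not above background. Ednrb, the endothelin receptor of neural crest and melanoblasts, rose by 0.66 (SE 0.11, adjusted p = 0.00017), with 1 of its 3 detected probes changing the other way. Ngfr, the low-affinity neurotrophin receptor of neural crest, rose by 0.80 (SE 0.19, adjusted p = 0.0025), and Sox10, the factor that defines these cells, was at 10.18, 10.40 and 10.59 and then 10.08, 9.70 and 10.63 (change -0.25, adjusted p = 0.34), and passed as a fall without array 3 at 36 h. The number of neural crest genes that rose was 2 without array 3 at 6 h.

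Neuronal genes were mixed, with 5 of 20 rising and 2 falling. Stmn3 and Stmn2, microtubule regulators of neurons, rose by 1.63 (SE 0.27, adjusted p = 0.00011) and 1.21 (SE 0.27, adjusted p = 0.0014). Syt1, a calcium sensor of synaptic vesicles, went from 8.45, 8.44 and 8.41 to 9.27, 9.87 and 9.60 (1.15, SE 0.24, adjusted p = 0.00075). Isl1, a factor of young motor, sensory and sympathetic neurons, fell from 10.13, 10.08 and 9.92 to 8.79, 9.12 and 9.03 (-1.06, SE 0.25, adjusted p = 0.0021). Npy, the transmitter neuropeptide Y, had the largest rise of all named genes, from 6.45, 5.63 and 6.29 to 9.85, 9.42 and 9.65, which is 11.5-fold (3.52, SE 0.22, adjusted p = 1.3e-09). Eef1a2, an elongation factor isoform of neurons and muscle, rose by 2.73 (SE 0.34, adjusted p = 4.4e-06). Neuronal falls numbered 1 without array 1 of either time. Of 8 neural progenitor genes only Fabp7, a fatty acid binding protein, rose, by 0.73 (SE 0.24, adjusted p = 0.023), which did not pass without array 2 of either time or array 3 at 6 h.

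Epithelial genes fell. Of 14 nephric and other epithelial genes 8 fell and none rose, with a median of -0.64. Krt8 and Krt18, the paired keratins of simple epithelia, both fell by 2.49. Krt8 read 9.40, 9.70 and 9.69 at 6 h and 7.52, 5.84 and 7.95 at 36 h, and Krt18 read 8.89, 9.27 and 8.95 and then 6.62, 6.01 and 7.02. No array of either time overlapped the other. Cldn4, a tight junction claudin, was above background on every array at 6 h and on none at 36 h and was at least 5.74-fold lower (adjusted p = 3.1e-09). Krt14, a keratin of basal epithelium outside the list, fell by 2.84 (SE 0.30, adjusted p = 7.4e-07). Another claudin, Cldn11, did the opposite and rose by 2.81 (SE 0.57, adjusted p = 0.0007), with array 2 at 36 h at 10.55 against 8.60 and 7.42. Of 7 coelomic and gonadal genes 4 fell, led by Podxl, a sialomucin of podocytes and the coelomic lining, from 7.92, 9.26 and 8.66 to 7.20, 7.27 and 7.81 (-1.19, SE 0.24, adjusted p = 0.00078). In the germ cell list 4 of 7 fell and 1 rose, but the germ cell genes proper, Dppa3, Ddx4 and Dazl, were not above background. Its members that fell were Dnd1, an RNA-binding protein of germ cells, by 1.11, Tfap2c, a factor also of skin and neural crest, by 1.00, Sox17 and Dppa5a, a gene of pluripotent cells. Dppa5a (-0.59, SE 0.19, adjusted p = 0.019) did not pass without array 2 or array 3 at 36 h or array 1 or array 3 at 6 h. The riser was Ifitm3, an interferon-inducible membrane protein, by 1.47 (SE 0.27, adjusted p = 0.00023). Liver genes were mostly not tested, as Afp, Alb, Ttr and 6 others of 15 were not above background. Of 6 tested the apolipoprotein Apoa2 rose by 1.67 (SE 0.21) and Sox17 fell. In that list 2 rose without array 2 at 36 h and 2 fell without array 1 at 36 h.

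**Figure D2:**
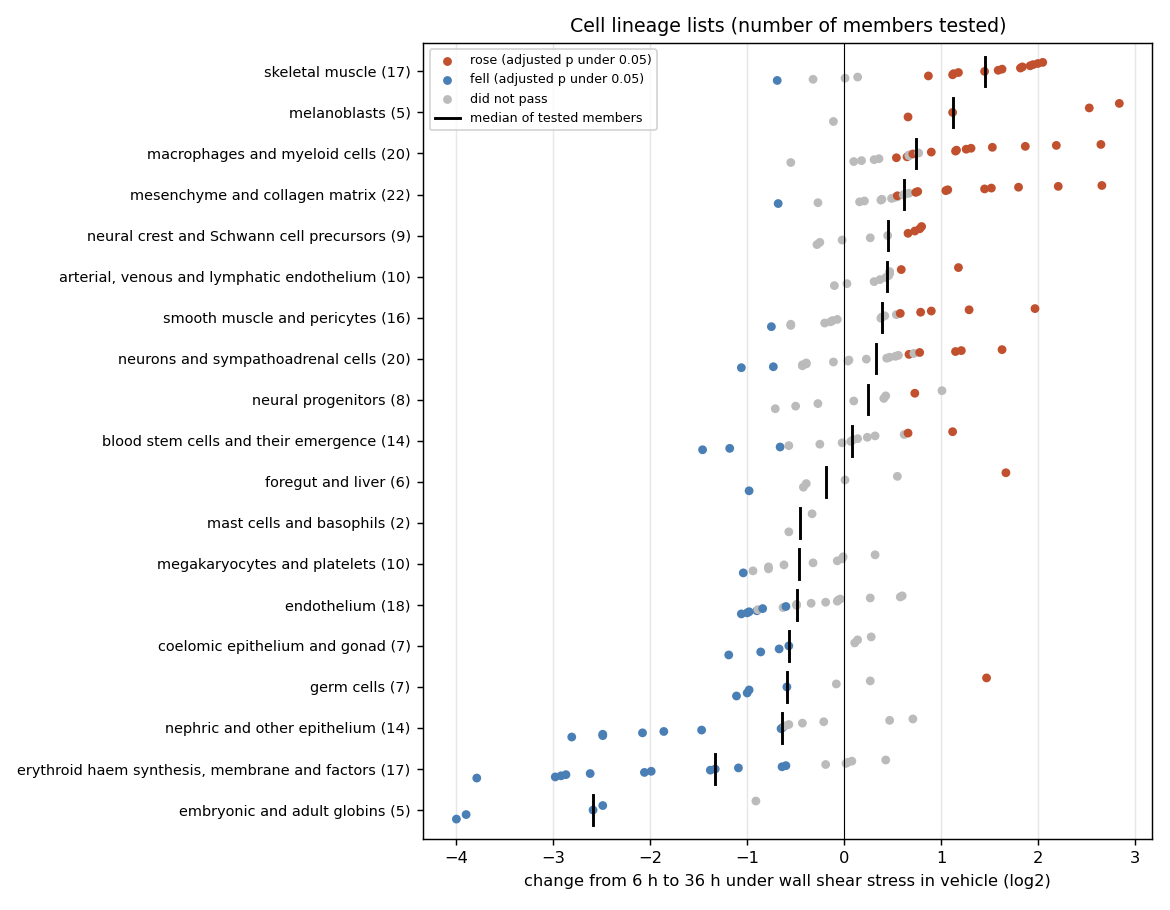
Change from 6 h to 36 h under WSS in vehicle (log2, horizontal axis) of every tested member of the 19 lineage lists, with the number tested in brackets; orange-red points rose, blue points fell, grey points did not pass and black bars are medians. Skeletal muscle has the highest median, 1.45, and the globins the lowest, -2.59.

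Genes of proliferation and growth fell by modest amounts. Of 25 DNA replication genes 11 fell and none rose, with a median of -0.31, and of 24 mitosis genes 12 fell and none rose, with a median of -0.41. Mcm10, which loads the replication machinery, read 10.42, 10.68 and 10.89 and then 9.56, 9.66 and 9.17 (-1.20, SE 0.18, adjusted p = 2.9e-05). Cdc6, which licenses origins, fell by 1.11 (SE 0.15, adjusted p = 1.1e-05) on the probe used, and its second detected probe changed the other way. Cenpf, a kinetochore protein, went from 7.29, 6.96 and 7.07 to 5.42, 6.26 and 5.82 (-1.27, SE 0.20, adjusted p = 7.1e-05), and Kif23, a motor of cell division, fell by 0.85 (SE 0.16, adjusted p = 0.00043). Each of these had no overlap between times. The mitotic kinase Cdk1 was level (-0.15, SE 0.15), the sliding clamp Pcna changed by -0.17 (SE 0.16) and the proliferation marker Mki67 by -0.61 (SE 0.27, adjusted p = 0.08). Mki67 passed, at -0.86, without array 2 at 36 h. Without array 3 at 36 h, or without array 3 at 6 h, 7 mitosis genes fell.

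Promoter stretches are shown for Cenpf, Kif23 and Cdc6, because cell cycle genes share motifs near their start sites. They were taken in order of fall among genes whose stretch holds the motifs searched, so their matches follow from the choice. In the mitosis promoters the capitals mark the CHR element, TTTGAA, and the CCAAT box, CCAAT, and in Cdc6 the E2F site, searched in its forms TTGGCGC and also TTCGCGC and also TTCCCGC and also TTGCCGC, each on either strand. Of the 10 mitosis genes that fell and have a stretch in the RefSeq table, 8 held a CHR element, beside 17.9% of all stretches, and 6 a CCAAT box, beside 37.4%. Of the 12 stretches of replication genes that fell, 8 held an E2F site, beside 9.6% of all stretches. Mcm10, which fell more than Cdc6, has a stretch without such a site and was passed over. Members that did not pass held them too, as 15 of the 19 stretches of all tested mitosis genes had a CHR element. The stretches are on GRCm38.p6, at chr1:189688037-189688336 on the minus strand for Cenpf, chr9:61946750-61947049 on the minus strand for Kif23 and chr11:98907901-98908200 on the plus strand for Cdc6.
Cenpf: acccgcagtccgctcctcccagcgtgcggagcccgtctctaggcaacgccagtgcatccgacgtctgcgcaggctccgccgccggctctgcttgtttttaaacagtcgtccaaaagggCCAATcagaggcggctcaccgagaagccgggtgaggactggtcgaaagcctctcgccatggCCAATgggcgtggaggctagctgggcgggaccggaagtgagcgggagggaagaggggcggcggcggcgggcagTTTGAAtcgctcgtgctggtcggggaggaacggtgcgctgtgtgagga
Kif23: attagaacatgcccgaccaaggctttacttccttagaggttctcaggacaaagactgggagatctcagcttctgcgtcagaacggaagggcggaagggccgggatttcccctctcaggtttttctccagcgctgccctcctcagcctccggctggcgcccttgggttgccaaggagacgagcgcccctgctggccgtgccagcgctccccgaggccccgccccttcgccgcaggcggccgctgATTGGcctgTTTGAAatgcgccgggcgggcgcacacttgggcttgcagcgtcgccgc
Cdc6: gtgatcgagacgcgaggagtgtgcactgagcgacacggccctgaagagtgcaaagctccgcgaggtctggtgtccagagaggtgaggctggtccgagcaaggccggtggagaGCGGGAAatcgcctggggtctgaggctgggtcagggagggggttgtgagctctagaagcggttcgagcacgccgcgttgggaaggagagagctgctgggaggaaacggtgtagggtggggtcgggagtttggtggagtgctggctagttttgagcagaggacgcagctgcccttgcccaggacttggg

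Genes that build ribosomes fell in 14 of 21 cases and rose in none, with a median of -0.51, and 11 to 13 fell with any 1 array left out. Gnl3, nucleostemin, read 13.02, 12.93 and 13.05 and then 11.95, 11.96 and 11.64 (-1.15, SE 0.12, adjusted p = 5e-07). Ncl, nucleolin, fell by 1.13 (SE 0.13, adjusted p = 3e-06). Of 18 heat shock genes 8 fell and none rose, with a median of -0.39. Hspb1, a small heat shock protein, fell by 1.14 (SE 0.24, adjusted p = 0.0008) and the constitutive chaperone Hspa8 by 0.63 (SE 0.13, adjusted p = 0.00072), from 14.56, 14.79 and 14.84 to 13.97, 14.17 and 14.17. Respiratory chain subunits moved up, with 13 of 25 rising and none falling. Cox4i1 of complex IV read 13.30, 13.27 and 13.33 and then 14.12, 14.08 and 14.10 (0.80, SE 0.13, adjusted p = 6.7e-05). That list's count was 6 without array 2 at 6 h, 7 without array 3 at 6 h and 7 when arrays were scaled to a common median in place of quantile normalization.

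Genes of the early embryonic program that the RNA-binding protein Lin28 and the let-7 microRNAs control fell in 8 of 12 cases, with a median of -0.77 and none rising. Trim71, a stem cell RNA-binding ubiquitin ligase, read 8.43, 8.49 and 8.66 and then 6.54, 6.22 and 6.56 (-2.09, SE 0.19, adjusted p = 1.3e-07). Lin28b itself fell by 1.83 (SE 0.21, adjusted p = 1.8e-06), its relative Lin28a by 0.84 (SE 0.19, adjusted p = 0.0018) and Igf2bp1, an embryonic RNA-binding protein, by 1.23 (SE 0.12, adjusted p = 5e-07). Hmga2, the classical let-7 target, did not pass (-0.31, SE 0.19). The growth factor Igf2 was flat at 15.31, 15.41 and 15.50 and then 15.30, 15.36 and 15.52, and H19 changed by -0.12 (SE 0.12). Outside the list Sall4, a stem cell transcription factor, went from 7.91, 8.85 and 8.71 to 5.53, 5.29 and 4.98, where 2 of 3 arrays were above background (-3.22, SE 0.25, adjusted p = 1.4e-08). Igdcc3, a receptor-like protein of the early embryo, fell from 9.88, 10.52 and 10.32 to 7.32, 7.68 and 7.22 (-2.83, SE 0.20, adjusted p = 5.5e-09). In each of these that passed, all 36 h arrays lay below all 6 h arrays, as they did for 22.2% of all genes. The largest falls of all genes were named only among those with such separation, so for them it follows from the choice.

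Of 16 imprinted growth regulators 4 fell and 1 rose, and 2 fell and none rose without array 3 at 6 h. Phlda2, which restrains placental growth, fell from 7.68, 7.81 and 8.11 to 6.34, 6.62 and 5.87 (-1.59, SE 0.19, adjusted p = 2.7e-06). Cdkn1c, a cell cycle inhibitor, rose by 0.47 (SE 0.14, adjusted p = 0.013). A probe that carries the older name Gtl2 of the long noncoding RNA Meg3 fell by 2.51 (SE 0.17, adjusted p = 3.1e-09), whereas the probe named Meg3 changed by -0.35 (adjusted p = 0.24).

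Of 25 Hox genes, which set position along the body axis, 9 fell and none rose, with a median of -0.34. Hoxb3 fell from 7.13, 7.26 and 7.14 to 5.98, 5.94 and 6.28 (-1.11, SE 0.20, adjusted p = 0.00019), with 1 of its 3 detected probes changing the other way. Hoxb4 fell by 0.59 (SE 0.16, adjusted p = 0.0062) and Hoxd3 by 0.91 (SE 0.20, adjusted p = 0.0014). The count was 5 without array 1 at 36 h, array 3 at 36 h or array 3 at 6 h.

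Immediate early genes, which encode fast-acting transcription factors and their brakes, were higher after the longer culture. Of 20 tested 10 rose and 1 fell, with a median of 0.68, and 8 to 11 rose with any 1 array left out. Fosb read 6.15, 5.56 and 6.02 at 6 h and 9.03, 9.53 and 7.99 at 36 h, a 7.70-fold rise (2.94, SE 0.42, adjusted p = 2.1e-05). Its partner Fos went from 10.10, 9.88 and 9.79 to 12.40, 12.71 and 11.32 (2.22, SE 0.32, adjusted p = 2.1e-05). In both, array 3 was the lowest at 36 h yet above all 6 h arrays. Egr3 rose by 1.93 (SE 0.32), Egr1 by 1.38 (SE 0.25), Jun by 1.25 (SE 0.15), Junb by 1.06 (SE 0.14) and Zfp36, which destabilizes mRNAs of cytokines, by 1.74 (SE 0.19). The member that fell was Srf, the factor that drives many of them, by 0.76 (SE 0.12, adjusted p = 7.1e-05). Myc changed by -0.12 (SE 0.24) and Ier2 by -0.48 (SE 0.31), and neither passed.

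Genes that laminar flow controls in endothelium rose in 12 of 24 cases and fell in 2, with a median of 0.53. The list is not split into genes that flow raises and genes that it lowers, so these figures do not measure a response to flow. Klf2, the zinc finger factor that flow induces, read 6.09, 6.50 and 6.58 at 6 h and 8.99, 8.80 and 7.31 at 36 h, a 3.92-fold rise (1.97, SE 0.45, adjusted p = 0.0018). Its relative Klf4 rose by 0.97 (SE 0.25, adjusted p = 0.0051). For both, array 3 at 36 h was the lowest of its group and still above every 6 h array. Aqp1, a water channel, rose by 1.82 (SE 0.25, adjusted p = 1.8e-05) and Vcam1, a leukocyte adhesion molecule, by 1.55 (SE 0.23, adjusted p = 3.2e-05). Edn1, the constrictor endothelin, fell from 8.84, 8.69 and 8.75 to 6.77, 5.86 and 7.56 (-2.03, SE 0.51, adjusted p = 0.0039), and 1 gene of the list fell without array 1 at 36 h or array 3 at 6 h. Among genes closely tied to flow that did not pass were Nos3, endothelial nitric oxide synthase (0.15, SE 0.22), and Thbd, thrombomodulin, which spread from 7.60 to 9.59 at 36 h (0.12, SE 0.39). In static vehicle, without the pump's flow, 11 of the same 24 genes rose with time and 1 fell. Of 10 prostaglandin genes, 2 rose, the prostacyclin synthase Ptgis from 9.16, 9.18 and 9.16 to 10.23, 9.90 and 10.28 (0.97, SE 0.14, adjusted p = 3.3e-05) and the carbonyl reductase Cbr1 (0.68, SE 0.15, adjusted p = 0.0013). The prostaglandin E synthase Ptges changed by 0.29 (SE 0.26), and Ptgs2, cyclooxygenase 2, was not above background.

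Targets of the tumour suppressor p53 rose in 8 of 16 cases and none fell, with a median of 0.50. Cdkn1a, the cell cycle inhibitor p21, read 10.28, 10.01 and 10.16 and then 11.80, 10.65 and 11.88 (1.30, SE 0.22, adjusted p = 0.00015), and Pmaip1, a promoter of cell death, rose by 1.18 (SE 0.22, adjusted p = 0.00025). Array 2 was the lowest at 36 h for both. The count was 4 without array 1 at 36 h or array 2 at 6 h, 5 without array 3 at 36 h or array 1 at 6 h, and 4 with no filter on dim probes. In 3 further stress programs 1 array of the 36 h group stood apart. In the hypoxia list, 4 of 26 rose, Ddit4, Bhlhe40, Ndrg1 and Egln1, by 0.55 to 1.11, and the glycolytic regulator Pfkfb4 fell by 0.35. The call on Pfkfb4 was lost without array 3 at 36 h or array 2 or array 3 at 6 h, that on Egln1 without array 2 or array 3 at 36 h or array 1 or array 2 at 6 h, and that on Ndrg1 without array 2 at 36 h or array 3 at 6 h. Array 2 at 36 h read 8.67 for the pyruvate dehydrogenase kinase Pdk1 against 6.65 and 6.32 on its partners, 8.03 for Mgarp against 5.54 and 5.23, and 8.43 for Ndrg1 against 6.80 and 7.01. Without array 2 at 36 h 2 hypoxia genes rose and 5 fell.

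Array 1 at 36 h stood apart in another way. It read 10.74 for the haem oxygenase Hmox1 against 8.71 and 9.09 on its partners and 8.22 to 8.57 at 6 h, and 8.13 for the cystine transporter Slc7a11 against 5.94 and 6.30. Of 20 antioxidant genes under NRF2, 5 rose and 1 fell. Without array 1 at 36 h 2 rose and 2 fell, and without array 3 at 6 h 3 rose. None fell without array 2 or array 3 at 36 h or array 3 at 6 h. For genes of the amino acid response that array read 9.68 for Trib3 against 6.83 and 6.61, 10.95 for Chac1 against 8.47 and 7.89, and 12.80 for Asns against 11.10 and 11.25. In that list 3 of 24 rose and 3 fell. Without array 1 at 36 h 7 fell, without array 2 of either time none fell, and without array 3 at 36 h 6 rose and 1 fell. The part of these differences between arrays in the time changes was not tested beyond leaving arrays out.

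**Figure D3:**
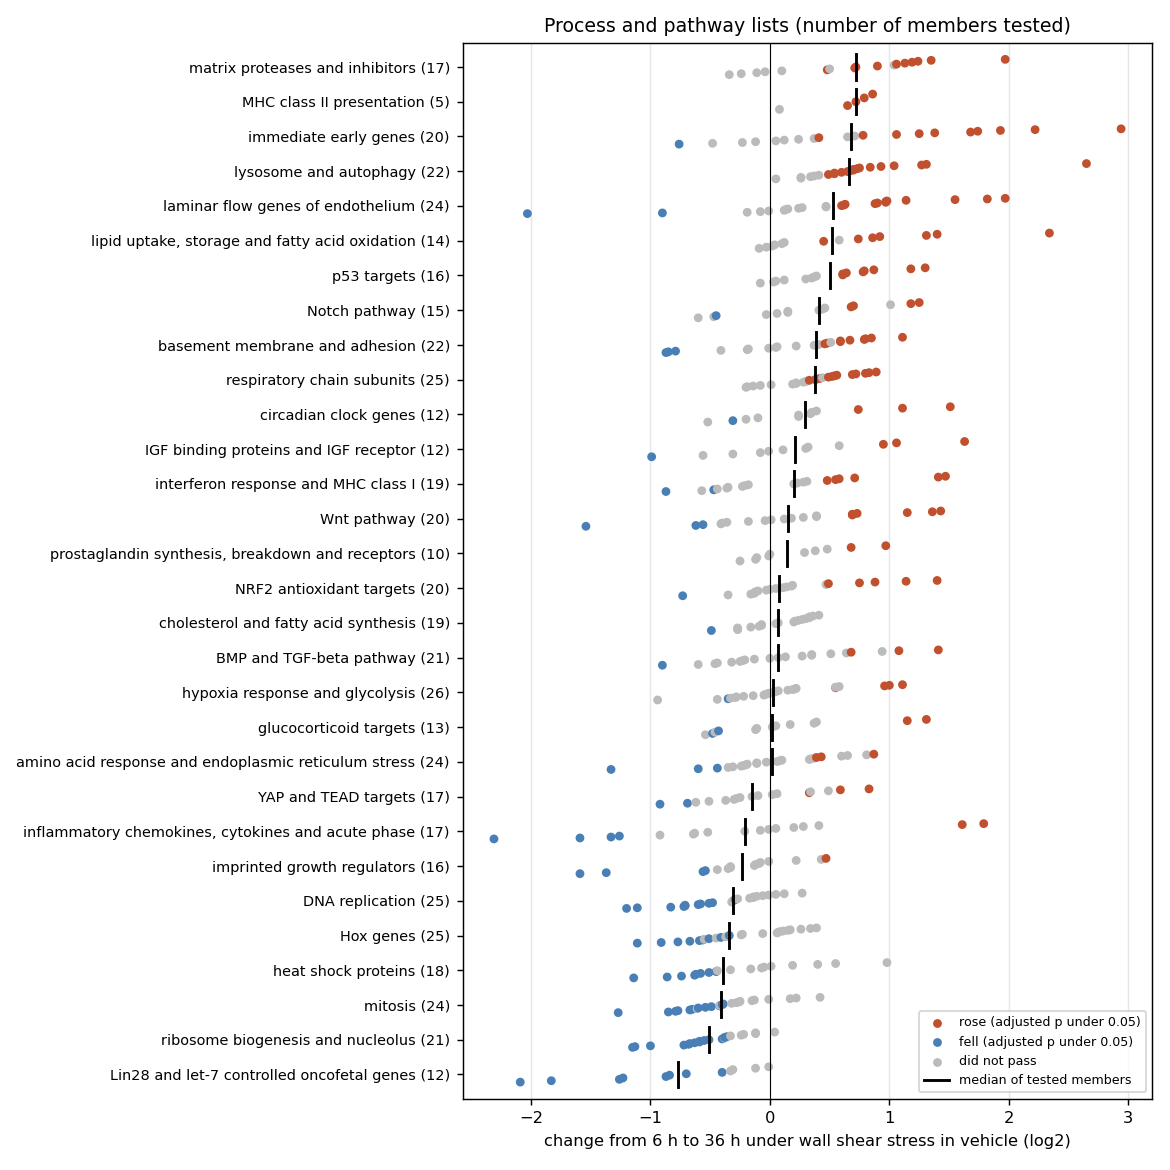
Change from 6 h to 36 h under WSS in vehicle (log2, horizontal axis) of every tested member of the 30 process lists, with the number tested in brackets; orange-red points rose, blue points fell, grey points did not pass and black bars are medians. Lysosome and immediate early genes lie mostly to the right and the ribosome and Lin28 lists to the left.

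Lists of signalling pathways and related genes were not tested as wholes. Of those that follow, the Wnt list had 45.0% of its tested members passing and the others at most 33.3%, beside 35.8% of all genes. Of 15 Notch genes 4 rose and 1 fell, with Heyl, a target in mural cells, going from 6.66, 6.73 and 7.03 to 7.99, 8.14 and 8.02 (1.25, SE 0.18, adjusted p = 1.9e-05). The receptor Notch4 fell by 0.45 (SE 0.16, adjusted p = 0.035), which did not pass without array 1 or array 3 at 36 h or array 2 or array 3 at 6 h, and 2 Notch genes fell without array 2 at 36 h. In the BMP and TGF-beta list 3 of 21 rose and 1 fell, while 5 rose without array 1 or array 2 at 36 h and 2 fell without array 3 at 36 h. The ligand Bmp7 rose by 1.41 (SE 0.32, adjusted p = 0.0017) and the inhibitor Smad6 fell by 0.90 (SE 0.27, adjusted p = 0.014), which did not pass without array 1 at 36 h or array 3 at 6 h. In the Wnt list 6 of 20 rose and 3 fell. The secreted inhibitors differed, as Wif1 and Dkk3 rose by 1.43 (SE 0.25) and 1.36 (SE 0.14) while Dkk1 was above background on all arrays at 6 h and none at 36 h and was at least 2.17-fold lower. The other 2 that fell were the ligand Wnt2 (-0.62, SE 0.18, adjusted p = 0.0094) and the target factor Lef1 (-0.56, SE 0.20, adjusted p = 0.036). Wnt2 did not pass without array 2 at 6 h, nor Lef1 without array 1 at 36 h or array 3 at 6 h. Of 12 IGF genes 3 rose and 1 fell, or 2 without array 1 of either time. Igf1, insulin-like growth factor 1, rose by 1.63 (SE 0.32, adjusted p = 0.00055), and the binding protein Igfbp3 by 1.06 (SE 0.17, adjusted p = 9e-05), while the adaptor Irs2 fell by 0.99 (SE 0.24, adjusted p = 0.0034). Dbp, an output gene of the circadian clock, rose from 7.84, 8.08 and 7.79 to 9.30, 10.10 and 8.85 (1.51, SE 0.24, adjusted p = 5.3e-05), 1 of 3 clock genes of 12 that rose. Klf9, a glucocorticoid target, rose by 1.15 (SE 0.25, adjusted p = 0.0011), but another, Fkbp5, fell by 0.43 (SE 0.15, adjusted p = 0.031), which did not pass without array 3 at 36 h or array 1 or array 2 at 6 h. In their list 2 of 13 rose and 2 fell, with 1 fall left without array 1 or array 3 at 6 h and none without array 3 at 36 h or array 2 at 6 h. Of 19 cholesterol genes only Lss, lanosterol synthase, passed, with a fall of 0.49 (adjusted p = 0.048) that was absent in 5 of the 6 fits that leave out an array. YAP and TEAD targets gave 3 rises and 2 falls of 17, but 1 rise without array 1 or array 2 at 36 h or array 1 or array 3 at 6 h, and 4 falls without array 3 at 36 h and 1 without array 1 at 36 h or array 2 or array 3 at 6 h.

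Inflammatory genes divided. Of 17 tested 2 rose and 4 fell, so that 35.3% passed, beside 35.8% of all genes. Acod1, the enzyme of activated macrophages that makes itaconate, read 8.09, 7.11 and 6.47 at 6 h and 4.77, 5.22 and 4.77 at 36 h, where 1 array was above background (-2.31, SE 0.40, adjusted p = 0.00016). Cxcl10, an interferon-inducible chemokine, was above background on no array at 36 h and was at least 1.86-fold lower. Il11, a cytokine of stromal cells, rose from 5.16, 5.39 and 5.19 to 7.84, 6.16 and 6.56 (1.61, SE 0.28, adjusted p = 0.00017) and the macrophage chemokine Ccl9 by 1.79 (SE 0.50, adjusted p = 0.0077), which did not pass without array 1 at 36 h. The cytokine genes Il1b, Il6 and Tnf were not above background. In the interferon and MHC class I list 6 of 19 rose and 2 fell, and 2 rose without array 2 or array 3 at 6 h or array 3 at 36 h. There 1 fell in 5 of the 6 fits that leave out an array, all but the one without array 1 at 6 h.

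Static vehicle culture over the same interval changed 6231 of 12226 genes (51.0%), of which 3176 rose and 3055 fell. Of the 2206 rises under WSS, 1464 also rose in static culture, which is 66.4% of the WSS rises and 46.1% of the static ones. Of the 2166 falls, 1535 were shared, or 70.9% of the WSS falls and 50.2% of the static ones. Few genes passed in opposite directions, with 42 rises and 52 falls under WSS that went the other way in static culture. A test of the difference itself, the change under WSS minus the change in static vehicle, passed for 1437 genes (11.8%), 774 with a higher and 663 with a lower value under WSS. These counts leaned on single arrays, at 487 and 426 without array 2 of WSS 36 h, 439 and 406 without array 1 of WSS 6 h, 450 and 386 without array 3 of static 6 h, and 504 and 468 without array 1 of static 36 h. With arrays scaled to a common median they were 343 and 337.

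**Figure D4:**
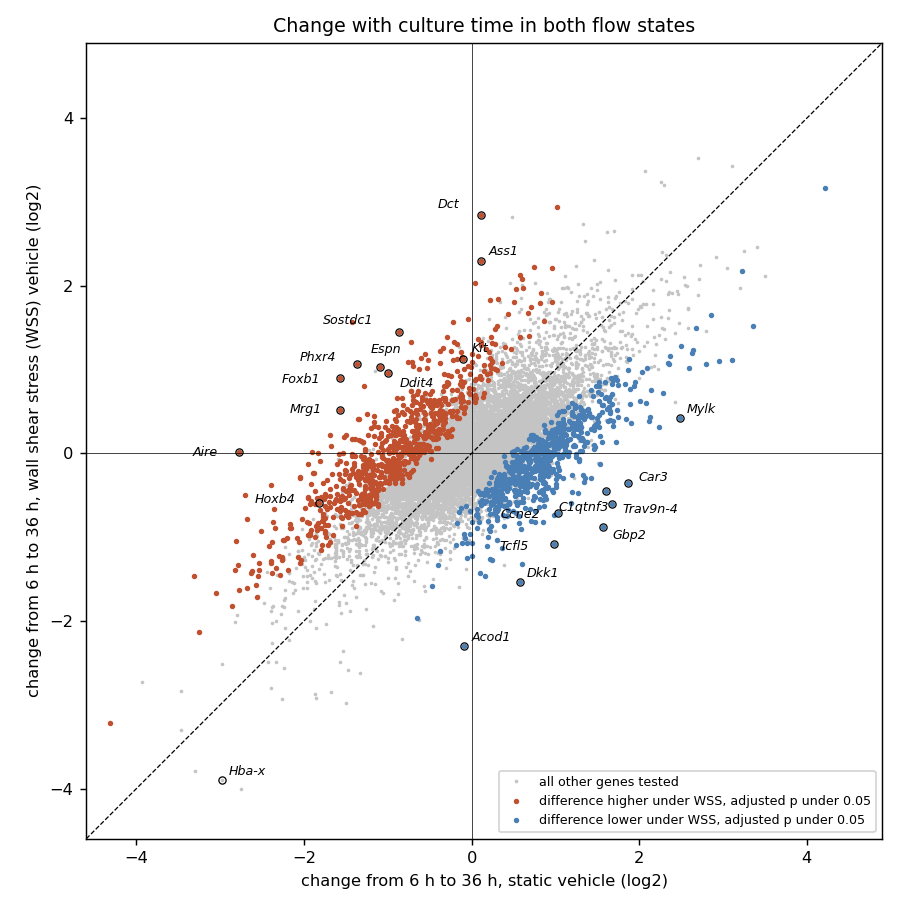
Change from 6 h to 36 h (log2) in static vehicle (horizontal axis) and under WSS in vehicle (vertical axis) for the 12226 genes tested; orange-red and blue points passed the test of the difference (774 higher and 663 lower under WSS), grey points did not, circles mark named genes and the dashed line is equal change. Most genes lie along the line, Dct and Kit above it and Dkk1 and Gbp2 below it.

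Several lists with marked changes under WSS, red cells, skeletal muscle, macrophages, lysosome, ribosome and Lin28, had at most 1 member passing this test in each direction. The exception was 2 ribosome genes with a lower value. Of all genes tested 6.33% passed with a higher and 5.42% with a lower value. In lists of this size such counts do not set the members apart from other genes. Not all lists that changed with time were alike in this. A higher value passed for 4 of 20 immediate early, 4 of 22 basement membrane and adhesion and 3 of 9 neural crest genes, and a lower value for none of them. In the inflammatory list 1 of 17 passed with a higher and 4 with a lower value, and in DNA replication 0 and 4 of 25. Globins fell in static culture too, by 2.98 for Hba-x and 2.75 for Hbb-bh1, and the difference for these 2 was -0.92 (SE 1.10, adjusted p = 0.62) and -1.26 (SE 1.02, adjusted p = 0.45). With such errors a difference of 2-fold either way was not detectable. Skeletal muscle rose in 11 of 17 cases in static culture, where 26.0% of all genes rose, with a median of 1.58, beside 1.45 under WSS.

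Kit was a gene whose course did differ. It was level in static vehicle, at 7.47, 8.11 and 7.78 at 6 h and 7.70, 7.56 and 7.77 at 36 h, and rose under WSS, for a difference of 1.23 (adjusted p = 0.0034). At 6 h all WSS arrays lay below all static ones, and at 36 h 2 of the 3 WSS arrays lay above all static ones. Dct was another, at 6.09, 5.53 and 5.93 and then 5.12, 6.24 and 6.53 in static culture, with a difference of 2.73 (adjusted p = 0.0027). The neural crest genes Ednrb and Ngfr differed by 1.00 (adjusted p = 0.0012) and 1.14 (adjusted p = 0.011), and neuronal Syt1 by 1.26 (adjusted p = 0.019). Of the 5 melanoblast genes tested 3 had a higher value under WSS in this test, beside 6.33% of all genes. These 3 are Dct, Kit and Ednrb, already named, so the count adds no further genes. Kit also stands in the blood stem cell list and Ednrb in the neural crest list. Cdkn1a was also level without flow, at 10.31, 9.99 and 10.15 and then 10.28, 9.91 and 10.60, and differed by 1.18 (adjusted p = 0.02). Among 16 p53 targets 5 had a higher value under WSS, beside the same 6.33% of all genes.

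In several further genes the flow states also differed at 6 h. Hoxb4 stood at 11.18, 11.36 and 11.29 in static culture at 6 h against 9.64, 10.22 and 10.11 under WSS, and at 9.33 to 9.59 and 9.28 to 9.51 at 36 h, so that its fall was larger in static culture (difference 1.23, adjusted p = 0.0024). In the Hox list 6 of 25 genes passed with a difference of this sign, beside 6.33% of all genes, and none with the opposite sign. Ddit4, a stress-induced brake on growth signalling, began at 12.31 to 12.49 in static culture and 9.81 to 10.24 under WSS and then moved in opposite directions, to between 11.31 and 11.51 in static culture and between 10.76 and 11.39 under WSS (difference 1.96, adjusted p = 0.00083). Ccne2, cyclin E2, showed the reverse, since it went from 6.72 to 7.13 at 6 h to between 7.81 and 8.05 at 36 h in static culture, and from 8.31 to 8.78 to between 7.68 and 7.87 under WSS (difference -1.75, adjusted p = 0.0011). Gbp2, an interferon-inducible GTPase, differed by -2.44 (adjusted p = 0.00029) and the Wnt inhibitor Dkk1 by -2.12 (adjusted p = 0.0002), although Dkk1 was above background on no WSS array at 36 h, so that the size of its difference is not fixed. Both were higher under WSS than in static culture at 6 h and lower at 36 h on average. Acod1, which fell under WSS, was above background on none of the 6 static vehicle arrays. Aire, the thymic regulator of self-antigens, passed the test (adjusted p = 8e-05) but was above background on no WSS vehicle array, so no size of the difference can be given. In static culture it was above background on all 3 arrays at 6 h and on none at 36 h and was at least 4.5-fold lower. Ass1, which makes argininosuccinate, was the member of this set with the clearest rise under flow, from 6.19, 6.11 and 6.09 to 8.31, 7.97 and 8.99, against 6.34 to 6.85 and 6.33 to 7.37 in static culture (difference 2.18, adjusted p = 0.0016). Its gap between flow states was wider at 36 h than at 6 h.

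**Figure D5:**
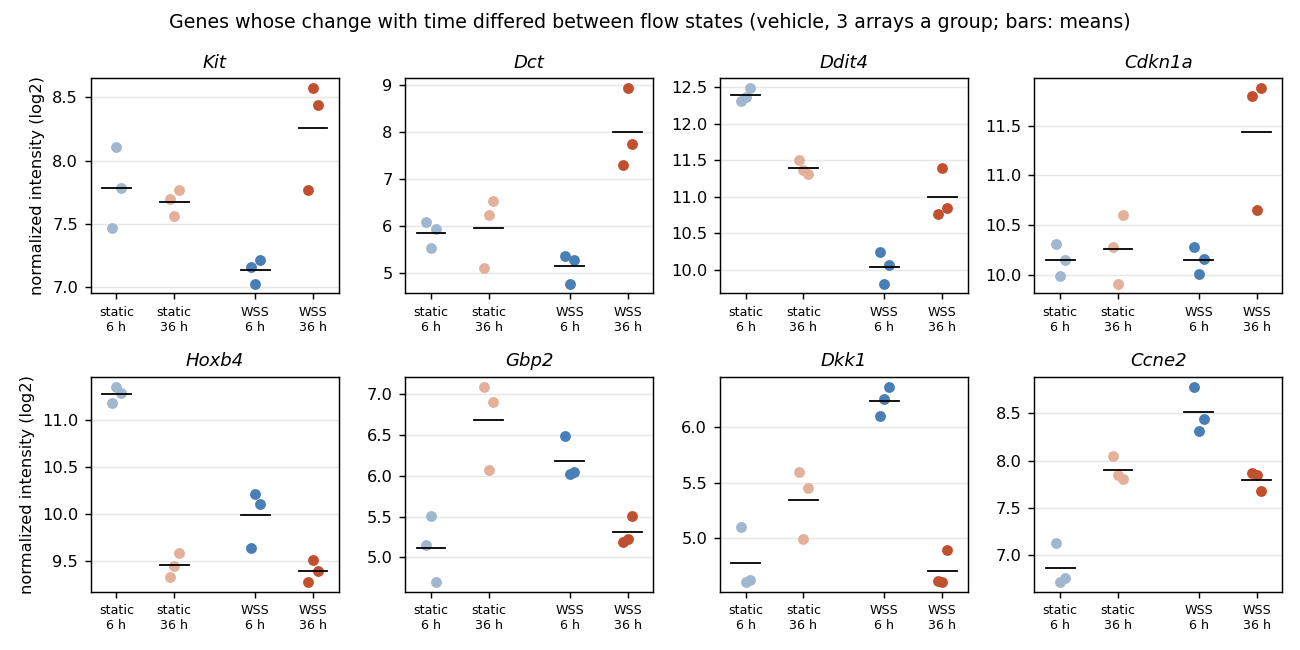
Normalized intensity (log2, vertical axes, which do not start at 0) of 8 genes on the 3 arrays of each vehicle group, static and WSS at 6 h and 36 h; points are arrays and black bars are means. Kit, Dct and Cdkn1a are level in static culture and higher at 36 h under WSS, Hoxb4 and Ddit4 begin higher in static culture, and Gbp2, Dkk1 and Ccne2 begin higher under WSS.

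No gene's change with time under WSS differed detectably with indomethacin. With the drug, 3759 genes (30.7%) changed between 6 h and 36 h, 1782 up and 1977 down, and of the vehicle rises and falls 1443 and 1504 passed the same way. The difference between the changes with drug and in vehicle passed for 0 of 12226 genes in limma (0.00%), with 394 at an unadjusted p under 0.05, and for 1 gene when array 3 of the drug group at 6 h was left out. The smallest p-values were those of Gcap26, whose role is not given here, Clec4g, a lectin receptor, and Fcgr3, an antibody receptor of myeloid cells. Fcgr3 rose by 1.16 in vehicle (SE 0.18) and changed by 0.15 with the drug, a difference of -1.0 (SE 0.26, unadjusted p = 0.00074, adjusted p = 1). Gcap26 and Clec4g differed by -0.96 (SE 0.23) and -0.93 (SE 0.23), both with an adjusted p of 1. Hbb-bh1 fell by 2.68 with the drug and Myog rose by 2.36. Of the skeletal muscle genes 13 of 17 rose with the drug, as many as in vehicle, beside 14.6% of all genes. Of the red cell genes 9 of 17 fell, beside 16.2%.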

How the data were processed

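RNA of 24 samples in 8 groups of 3 was hybridized to Illumina bead arrays. The authors deposited a non-normalized table with a signal intensity and a detection p-value per probe and array, per the file headers. Its exporting software is not given in the sources. Amplified cRNA was made with the Ambion MessageAmp kit, per the labels' protocols. A second deposited table of processed intensities served only as an alternative. Its values under 16 were set to 16 before log2 was taken. The median over all probes was 11.6 to 11.7 on the 24 arrays, so dim genes sit at that floor.

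The intensities were background-corrected, quantile-normalized and log2-transformed with neqc (limma 3.58.1, R 4.3.3, offset 16, all 24 arrays). Probes with a detection p under 0.05 throughout some group of 3 arrays were tested, 21251 in number. Of these 18242 carried a gene symbol, and the brightest per gene was used for 12226 genes. One linear model with a mean for each of the 8 groups (lmFit, eBayes) gave each contrast, adjusted by Benjamini-Hochberg over all genes. The number of arrays limits the precision.

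Named genes are the 15 largest rises and falls that passed with separated arrays, the 8 most extreme differences between the WSS and static time changes in each direction, the 3 with the smallest p for the drug, and up to 5 members of each list that passed, together with a panel of lineage genes. Other list members are named as examples and were chosen after their values were seen. The lists and the comparison were chosen with earlier results of these data known. Same-numbered arrays of the 2 times correlated at 0.06, 0.0461 and 0.0395 in their deviations, so they were not treated as pairs. Alternatives covered background, offset, scaling, filters, probe choice, samples fitted, array weights, variance settings, a replicate block and each array left out. The fits were tested on simulated data.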

Additional observations from a re-analysis of the deposited data

Results flagged for a closer look

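The change with time under WSS differed from that in static vehicle, by the test of the difference itself, for 47 of the named genes. Each value below is the change under WSS minus the change in static vehicle (log2). No cause was tested. For Aire, Acod1, Dkk1, Cxcl10 and Hoxb1 at least 1 of the 4 groups was above background on no array, so their values do not fix the size of the difference.

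Pigment cell, neural crest and neuronal genes gave 2.73 for Dct, 1.23 for Kit, 1.14 for Ngfr, 1.00 for Ednrb, 1.26 for Syt1 and 1.32 for Isl1. All but Isl1 rose under WSS, and Isl1 fell less there than in static culture. Hox genes gave 1.31 for Hoxb3, 1.23 for Hoxb4, 0.99 for Hoxb1, 0.94 for Hoxd3 and 0.84 for Hoxd4. Stress, clock and growth control genes gave 1.96 for Ddit4, 1.63 for Bhlhe40, 1.18 for Cdkn1a, 0.84 for Trp53inp1, 0.53 for Clock, 1.27 for Mki67, -1.75 for Ccne2, -0.74 for Xbp1 and -1.11 for Phlda2. Immediate early and related genes gave 1.92 for Fosb, 1.47 for Fos, 1.04 for Zfp36 and 0.88 for Ccn1.

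Immune genes gave -2.44 for Gbp2, -2.22 for Acod1, -0.92 for Cxcl10 and 1.65 for the cytokine Il11. The blood and endothelial factor Fli1 gave -0.96 and the stem cell factor Sall4 1.10. Matrix and contractile genes gave 1.36 for Ctsk, 0.93 for Col4a2, -1.06 for Lrrc17, -2.05 for C1qtnf3 and -2.07 for the myosin kinase Mylk. The Wnt inhibitors Dkk1 and Sostdc1 gave -2.12 and 2.32. The remaining values were 2.79 for Aire, 2.48 for Foxb1, 2.43 for Phxr4, 2.18 for Ass1, 2.13 for Espn, 2.09 for Mrg1, 0.96 for Gcap26, -2.28 for Trav9n-4, -2.21 for Car3 and -2.06 for Tcfl5. Over 24 alternative fits the difference failed to pass in 16 for Ccn1, 15 for Fosb, 14 for Hoxd4, 13 for Sall4 and Ctsk, 12 for Fos, 11 for Clock and 10 for Hoxd3 and Mki67, and in 16 of the 23 that could be made for Fli1.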

How the results depend on the processing

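Over all alternatives the change with time under WSS passed for 1718 to 2364 genes in the higher and 1652 to 2284 in the lower direction, and with 1 WSS vehicle array left out for 1718 to 2089 and 1656 to 2067. The difference from static culture was less stable. It passed for 343 higher and 337 lower genes under median scaling, 515 and 433 in a fit of only the arrays compared, 494 and 427 after renormalizing without WSS vehicle 36 h array 2, and 439 to 759 and 386 to 691 with 1 array left out. The causes were not tested, except that a fit of fewer arrays has fewer degrees of freedom. The drug difference stayed at 0 genes except for 1 higher gene without WSS indomethacin 6 h replicate 3 (range 0 to 1). With the replicate block the counts were 2276 and 2199 for time under WSS and 856 and 711 for the difference from static culture. The numbers are not shown to pair the samples, although WSS and static arrays of 36 h with the same number correlated at 0.149, 0.327 and 0.361. Of 225 named genes that passed, 167 passed under all 18 alternatives. Reversals were confined to Nid1 (-0.29 as the mean of all detected probes) and to genes that did not pass. Aire gave 0.00 with the authors' processed values (floored at 16), -0.12 as the mean of probes and -0.06 to 0.10 with an array left out. Itga2b gave 0.07 with array weights, 0.10 after renormalizing and -0.22 to 0.10 with an array left out. Thbd gave -0.00 with array weights and -0.42 to 0.57 with an array left out, Kdr -0.36 to 0.03 and Nos3 -0.01 to 0.28. Acta2 gave 0.03 under median scaling, 0.05 as the mean of probes, 0.01 after renormalizing and -0.16 to 0.01 with an array left out. Examples given in the text that did not pass and changed sign were Asns (0.11 after renormalizing, -0.74 to 0.11 with an array left out), Cpox (-0.07 with array weights, -0.15 to 0.28), Esam (0.01 with no background correction, 0.02 with array weights, -0.44 to 0.51), H19 (0.03 as the mean of probes), Igf2 (0.07 under median scaling, 0.00 after renormalizing, -0.08 to 0.04), Mgarp (0.11 with no background correction, 0.08 with an offset of 50, -0.90 to 0.50), Myc (0.08 after renormalizing, -0.40 to 0.08) and Pdk1 (-0.05 under median scaling, -0.02 with the authors' processed values and with array weights, -0.71 after renormalizing, -0.71 to 0.46). With an array left out Acta1 ranged from -0.05 to 0.30, Chac1 from -0.11 to 1.42, Slc7a11 from -0.48 to 0.62 and Urod from -0.11 to 0.09. Among genes given above as not passing, calls appeared for Asns, Runx1, Col1a1 and Gata2 without array 1 at 36 h, for Pdk1, Mgarp, Cdh5 and Mki67 without array 2 (also after renormalizing without it), for Chac1, Cldn5 and Sox10 without array 3, and for Gata2 and Tfrc without array 1 at 6 h. Gata2 and Tfrc also passed with no background correction, with an offset of 50 and with array weights, Tfrc with trend and robust settings, Mki67 with array weights, and Runx1 in a fit of only the arrays compared and with the replicate block (adjusted p = 0.035). With the block 8 neuronal genes rose in place of 5, and 2 Notch genes fell in place of 1. Lyz2, Dppa5a and Notch4 did not pass in a fit of only the arrays compared. Signal over background limits dim genes, for which only a bound can be given.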
